A study of Mus musculus with 8 samples.

Results

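The comparison concerns the small intestine of mouse pups that lack claudin-7, set against the small intestine of wild-type pups. Its members are the 4 arrays whose titles name the small intestine, out of 8 arrays in the series; the other 4 come from the large intestine of the same 2 genotypes. Pups were 129SV, 3 days old, and either wild type or claudin-7 knockout; no other allele or agent is named, and the labels do not say how the knockout was made. Each sample was total RNA from an intestinal fragment of 2 cm, with no separation of its layers described, hybridised with the Cy3 dye to a 1-colour Agilent array. Each group holds 2 arrays, numbered 2 and 3 in the titles. The labels do not state where along the small intestine each fragment was taken, nor that arrays came from separate animals. The p-values therefore measure the spread between these arrays, which may in part be technical. Sex-linked transcripts, given below, show that the 2 knockout arrays did not share a pup, and leave this undecided for wild type.

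Claudin-7 is a transmembrane protein of the intestinal epithelium, found at tight junctions and, to a large degree, along the sides and base of the cells, where it associates with Epcam and integrins. Loss of the protein in mice is known for shedding of epithelium, inflammation and death soon after birth. The neonatal small intestine is in a suckling state: its enterocytes take up milk by endocytosis, make arginine, and oxidise milk fat, while Paneth cells and the adult pattern of enzymes appear later. The epithelium rests on a wall of connective tissue, smooth muscle, enteric neurons and glia, covered by mesothelium, so a fragment's RNA mixes all of these.

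Levels are given as log2 of an array's processed signal over that array's 75th percentile, and differences as knockout minus wild type on the same log2 scale with the standard error (SE) of the fit; n = 2 arrays per genotype throughout. Within each genotype, values stand in the order replicate 2, replicate 3. A gene is said to have risen or fallen only where limma's Benjamini-Hochberg adjusted p, over all 19994 genes tested, was under 0.05. A probe's brightness also depends on its sequence, so levels are compared between arrays and never between genes. In these bulk fragments, fewer cells of a type and less RNA per cell cannot be told apart.

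The Cldn7 probe (chr11:69781255-69781314, mm9) read 5.89 and 5.93 in wild type against 2.21 and 0.94 in knockout. The 2 genotypes lay far apart, and both knockout arrays kept a signal above background. The difference was -4.34 ± 0.39, a 20.2-fold lower level (limma adjusted p = 0.00793), and it ranged from -4.97 to -3.70 with any 1 of the 8 arrays left out. The labels do not say which stretch of the gene was removed, so it is not known whether the probe lies inside it.

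The 4 arrays were alike in depth. Their 75th percentiles lay between 2642.5 and 3419.91 signal units, 63.6 to 72.1% of spots were well above background, and no spot was saturated. Within-genotype correlation over genes was 0.985 in wild type and 0.980 in knockout. Knockout replicate 3 stood apart in sex-linked transcripts: Xist, the RNA that coats an inactive X chromosome, read -2.42 there against -7.42 to -6.25 on the other 3 arrays, and the Y-linked Ddx3y read -8.47 against 0.70 to 1.33. All 8 arrays shared 1 slide, with each group filling 1 column of it, so an effect of the column cannot be told apart from that of the group. Summed over 8 liver markers, in multiples of the 75th percentile, the signal was 114 and 154 in wild type and 82.2 and 62.2 in knockout, and over 12 pancreas markers 15.5 and 20.2 against 1.80 and 1.67. In the latter Ctrb1, chymotrypsinogen, picked after its values were seen, read 3.84 and 4.24 in wild type and -1.32 and -2.78 in knockout without passing, and Cela1 rose.

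Of 19994 genes tested, 2005 (10%) passed: 1295 (6.48%) were higher in knockout and 710 (3.55%) lower. Both knockout arrays lay above both wild-type arrays for 26.6% of all genes and below them for 32.7%, whatever their p. These counts rest on the spread pooled over all 8 arrays. Without wild-type replicate 3 of the small intestine 71 genes passed, without knockout replicate 3 70, without knockout replicate 2 3830 and without wild-type replicate 2 1954. Leaving out either wild-type large intestine array gave 106, leaving out either knockout one 778, and a fit to the 4 small intestine arrays alone gave 35. In all, 14 rises (1.08% of them) and 21 falls (2.96%) passed with every 1 of the 8 arrays left out in turn, and Cldn7 was among the latter.

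Markers of smooth muscle, enteric neurons, enteric glia, mesothelium and fibroblasts had list medians of 1.63, 1.94, 1.59, 1.64 and 1.0 against -0.10 over all genes. In the smooth muscle list 17 of 18 genes were higher on both knockout arrays, but 3 passed: Tagln, Pgm5 and Hspb8. The other wall lists gave 10 of 18 rises for enteric neurons, 7 of 12 for glia, 5 of 9 for mesothelium and 6 of 18 for fibroblasts and matrix. Interstitial cells of Cajal, which pace the muscle, gave 3 of 7, endothelium 0 of 18 and fat 1 of 6, where 6.48% of all genes rose. The endothelium and fat medians were 0.44 and 0.26.

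Contractile genes show how the 4 arrays were ordered. Myh11, the smooth muscle myosin heavy chain, read 2.94 and 1.57 in wild type and 3.83 and 4.36 in knockout. Actg2, the enteric smooth muscle actin, read 6.12 and 5.23 against 6.77 and 7.01. Both genes were lowest in wild-type replicate 3 and highest in knockout replicate 3, and neither passed (differences 1.84 ± 0.49 and 1.22 ± 0.30, adjusted p = 0.0592 and 0.0521). Hspb8, a small heat shock protein of muscle, read 0.08 and -1.12 against 1.44 and 2.11, and its rise of 2.30 ± 0.44 passed (adjusted p = 0.0362). Summed over the 18 genes, on a linear scale in multiples of the array's 75th percentile, smooth muscle signal was 371 and 197 in wild type and 584 and 734 in knockout. The same order, from wild-type replicate 3 up to knockout replicate 3, held for the median of the neuron, glia, Cajal, fibroblast and mesothelium lists, but not of endothelium or fat, which were highest in knockout replicate 2.

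**Figure D1:**
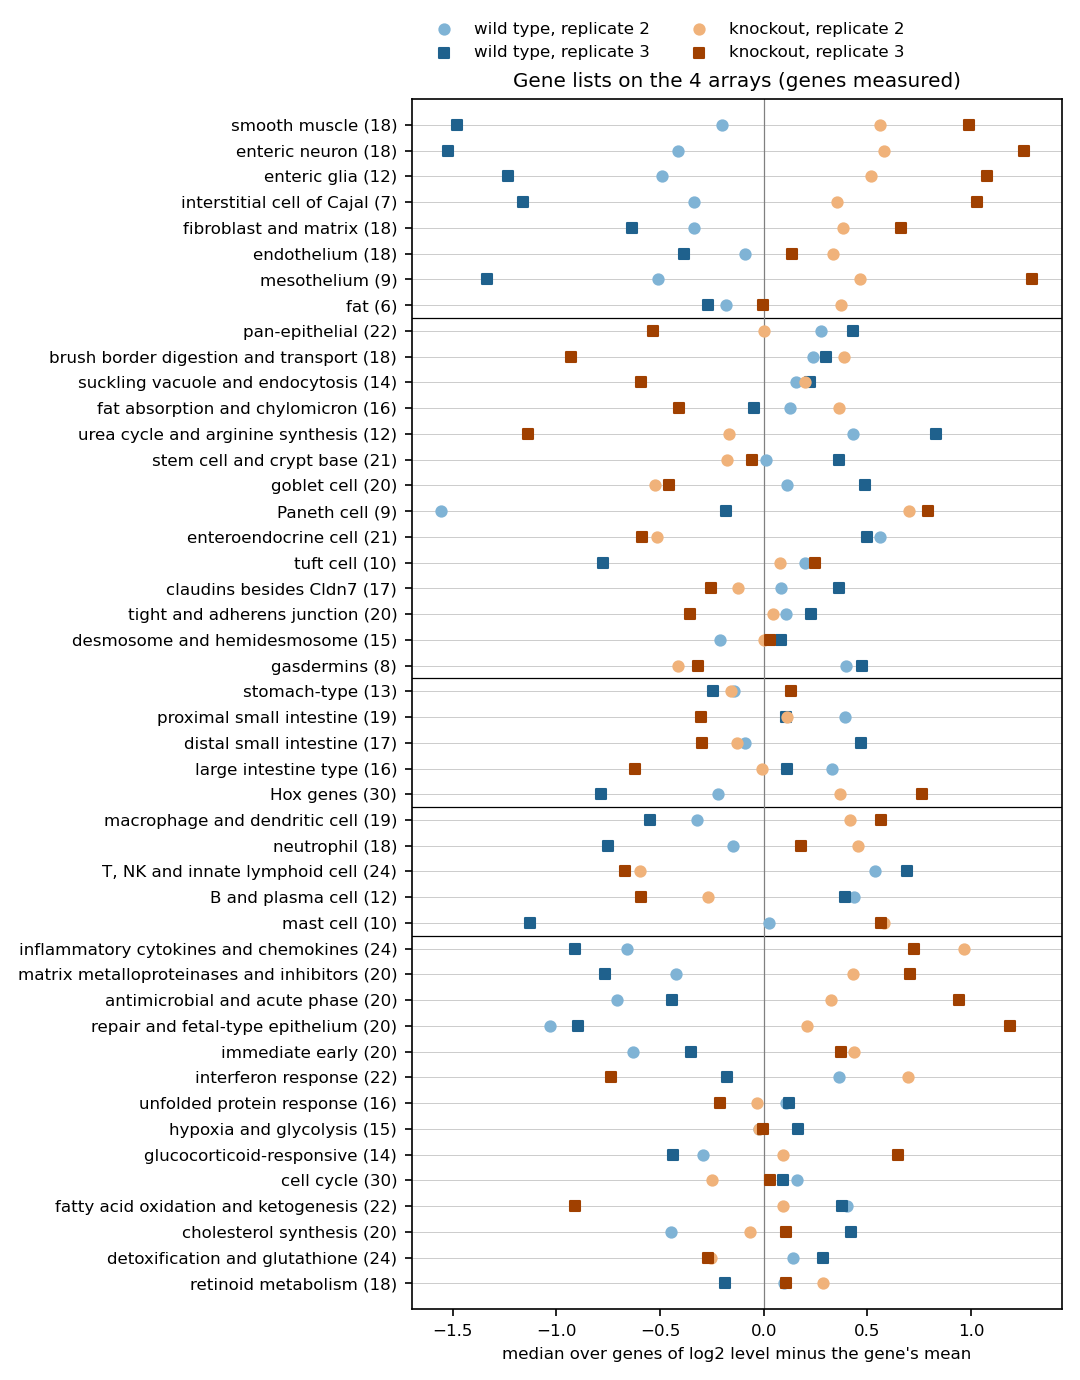
For each of 46 gene lists, the median over its measured genes of the log2 level minus that gene's mean over the 4 arrays, 1 point per array; circles are replicate 2 and squares replicate 3, blue is wild type and orange knockout. The 7 wall lists from smooth muscle to mesothelium have both knockout arrays on the right, smooth muscle running from -1.48 in wild-type replicate 3 to 0.99 in knockout replicate 3, while the lymphoid and enteroendocrine lists have both knockout arrays on the left.

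Vip, a relaxing neuropeptide of enteric neurons, read 1.27 and 0.53 in wild type and 2.67 and 3.63 in knockout, a rise of 2.25 ± 0.37 (adjusted p = 0.0288). Ret, the receptor that guides enteric neural crest cells, rose by 1.54 and Uchl1, a neuronal ubiquitin hydrolase, by 2.04. Sox10, the glial transcription factor, read -0.81 and -1.49 against 0.19 and 1.13, a rise of 1.81 ± 0.41. In each of these genes the knockout arrays lay above both wild-type arrays. Gfap, the intermediate filament of reactive glia, was far beyond the rest of its list at -6.09 and -6.75 against -2.52 and -0.08. Its difference was 5.12 ± 0.80 (adjusted p = 0.0268), of uncertain size because wild-type replicate 3 was not well above background. Erbb3, a glial neuregulin receptor that epithelium also expresses, fell by 1.37.

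Msln, the mesothelial surface protein mesothelin, read 2.46 and 1.84 against 3.68 and 3.91, and Wt1, a mesothelial transcription factor, -0.35 and -1.35 against 0.77 and 2.17. Their differences were 1.64 ± 0.26 and 2.32 ± 0.52. Dcn, the matrix proteoglycan decorin, rose by 0.98 ± 0.20 and Pdgfra, a receptor of fibroblasts, by 1.02 ± 0.21. Mgp, the matrix Gla protein, rose most in its list, from 2.89 and 1.68 to 4.77 and 5.94 (3.07 ± 0.50, adjusted p = 0.0284). Pecam1 and Cdh5 of endothelium differed by 0.40 and 0.27 and did not pass. In the large intestine the same contrast gave -0.40 for Myh11 and 0.04 for Vip; the test of the difference between the segments did not pass for them (adjusted p = 0.12 and 0.0994).

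Summed over 22 genes that all intestinal epithelial cells express, the signal was 690 and 754 in wild type and 715 and 516 in knockout. Only knockout replicate 3 was low in this sum, which weights bright genes most. The list's median deviation from each gene's mean was 0.28 and 0.43 in wild type and 0.0006 and -0.53 in knockout. On both knockout arrays 12 of the 22 were lower and 3 higher, where 32.7% and 26.6% of all genes were. Epcam, the adhesion molecule that binds claudin-7, read 4.40 and 5.0 against 4.54 and 4.26, and Cdh1, E-cadherin, 4.23 and 4.46 against 4.29 and 3.85. Neither passed, with differences of -0.30 ± 0.35 and -0.27 ± 0.26, and the genotypes overlapped in both. The list's median was -0.72. Of its 22 genes 4 fell and 0 rose, where 3.55% of all genes fell and 6.48% rose. The 4 were Grhl2 and Elf3, transcription factors of epithelial identity, Esrp2, an epithelial splicing regulator, and Rab25, a GTPase of apical recycling. Grhl2 read 0.46 and 0.83 against -0.66 and -1.15 (-1.55 ± 0.27, adjusted p = 0.0318).

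Because the medians of the wall and pan-epithelial lists moved in opposite directions, each gene was also read against the median of the smooth muscle list and against that of the pan-epithelial list on its own array. Against smooth muscle, 328 of the 1295 rises (25.3%) were still higher on both knockout arrays, as were 2.2% of all genes. Against epithelium, 655 of the 710 falls (92.3%) were still lower on both, as were 9.98% of all genes. The rises and falls were picked on these same arrays, so these shares do not separate fragment makeup from other change. The 2 lists shifted by 1.62 and -0.48 between genotypes, so a rise of up to about the former, or a fall of up to about the latter, has the size of the change in wall or epithelial signal. Centring on smooth muscle moved the median of all genes from -0.10 to -1.72, and 87 genes were then higher (0.435%) and 14235 lower (71.2%), in place of 1295 and 710. Centring on the epithelial list moved it to 0.38. Relative to smooth muscle the list medians became -0.62 for fibroblasts, -0.66 for macrophages, -0.46 for Hox genes, -0.40 for metalloproteinases, -0.74 for immediate early genes and -0.04 for cytokines, all positive before; the neuron and mesothelium medians stayed above 0. Among single genes described below or above, Ret, Dcn, Pdgfra, Adgre1, Jam2, Jam3, Klf6, Sult1a1, Gata2 and Hoxb3 likewise rose less than smooth muscle did. With both centrings, 63 genes (0.315%) passed as higher under each and 119 (0.595%) as lower. How much of any such rise or fall came from the makeup of the fragment was not tested.

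The numbered pairs show the same unevenness. Over the genes that rose, the median difference was 1.11 between the 2 arrays numbered 2 and 2.14 between those numbered 3. Over those that fell it was -1.24 and -1.74. The pairs correlated at r = 0.685 across the 19994 genes, which are not independent replicates and share their 4 arrays. Smooth muscle had medians of 0.74 and 2.49 in the 2 pairs, brush border genes 0.02 and -1.26, lymphoid genes -1.14 and -1.22, and inflammatory cytokines 1.46 and 1.61. Thus the smooth muscle and brush border medians lay farther apart in the 2 pairs than the lymphoid and cytokine medians, with no test of that difference; the endothelium medians were 0.41 and 0.48. A rise of at least 2-fold in both pairs was seen for 805 of the 1295 genes and a like fall for 459 of the 710. These genes were picked on the same arrays, so their agreement between the pairs was largely fixed in advance. The share over all genes was not counted.

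**Figure D2:**
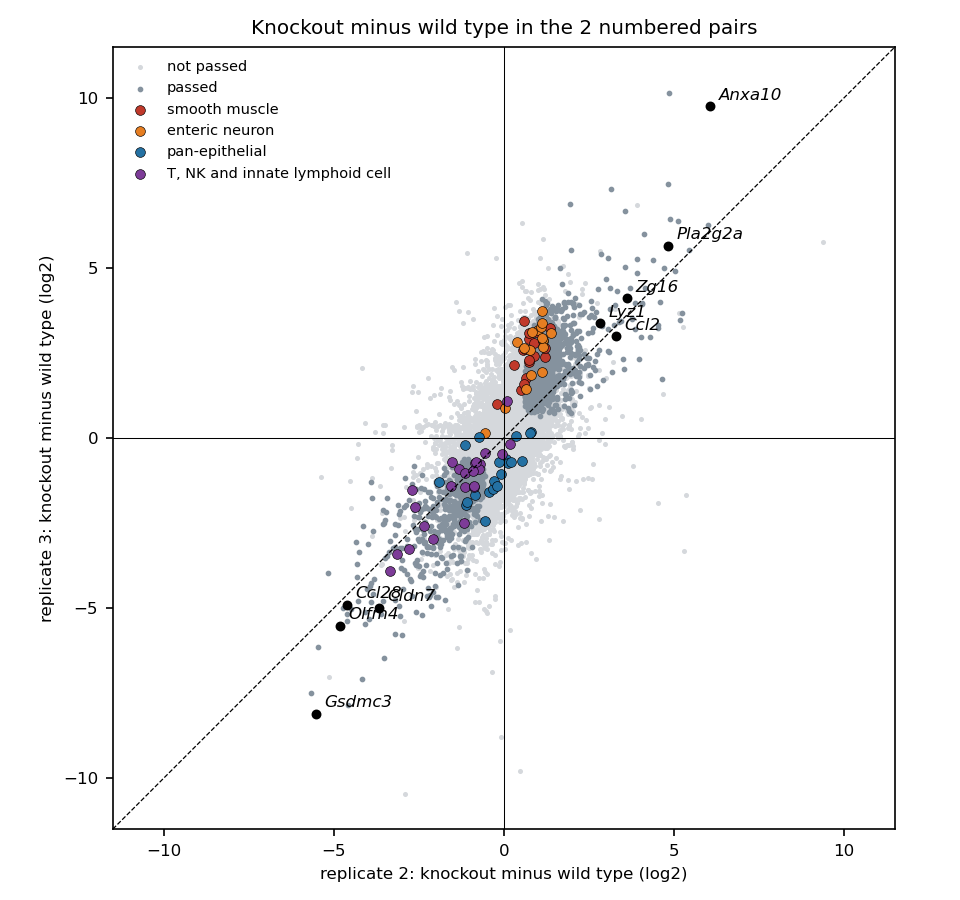
Knockout minus wild type in log2 for the arrays numbered 2 (horizontal) and those numbered 3 (vertical), 1 point per gene; darker grey genes passed, and the dashed line marks equality. Smooth muscle genes (red) have a median of 0.74 on the horizontal and 2.49 on the vertical axis, above the dashed line, while lymphoid genes (purple), with medians of -1.14 and -1.22, follow it.

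The 35 genes that passed whichever array was left out were selected after their values were seen. On the falling side were among others Olfm4, a secreted glycoprotein of the crypt base, the gasdermins Gsdmc, Gsdmc3 and Gsdmc4 with the pseudogene Gsdmcl-ps, and Ccl28, a chemokine that epithelium makes to draw plasma cells. Also there were Acer1, an alkaline ceramidase, and Ces2a, Gstm3, Aldh1a7 and Sult1c2, enzymes of detoxification. Pramel34 was there too, but its difference of -4.57 became 0.12 with outlier flags ignored. On the rising side were among others Zg16, a mucus lectin of goblet cells, Lyz1 and Pla2g2a, antimicrobial enzymes of Paneth cells, Tm4sf4, an epithelial tetraspanin-like protein, Gpnmb, a glycoprotein of lipid-laden macrophages, Ccl2, the monocyte chemokine, and Pappa2, a protease that cleaves an insulin-like growth factor binding protein. All 35 kept their order on both knockout arrays relative to epithelium, and all but Rax did so relative to smooth muscle. Over all genes, 43.7% were higher and 9.98% lower relative to epithelium. Relative to smooth muscle 2.2% were higher and 16863 of 19994 lower. The 35 were picked on these same arrays, and the smooth muscle median rose while the epithelial median fell. Much of this order was therefore fixed in advance.

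Olfm4 read 0.18 and 0.47 in wild type and -4.64 and -5.05 in knockout. Its fall of 5.17 ± 0.22 was 36.1-fold (adjusted p = 0.00199). Gsdmc3 read 1.77 and 2.66 against -3.75 and -5.45, and Gsdmc4 1.61 and 2.06 against -4.06 and -5.43, 113-fold and 95.8-fold lower. The knockout arrays lay more than 4 log2 units below the wild-type arrays for all 3 genes. Gsdmc fell 29.3-fold, and the remaining 5 of the 8 gasdermins measured did not pass. The Gsdmc genes are near-identical copies in 1 cluster, so a probe may also have bound its neighbours' transcripts. Ccl28 read -1.77 and -1.44 against -6.37 and -6.34 (26.9-fold lower, adjusted p = 0.00199). Only 1 of its knockout arrays was well above background, so that fold is uncertain. Acer1 read 0.09 and 0.10 against -3.11 and -3.31 (9.90-fold lower, adjusted p = 0.00247).

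Among the rises, Zg16 read 1.66 and 0.99 in wild type and 5.28 and 5.11 in knockout, 14.6-fold higher (3.87 ± 0.26, adjusted p = 0.00337). Tm4sf4 read 1.80 and 1.77 against 4.85 and 4.98, 8.78-fold higher, and Ccl2 -2.48 and -2.55 against 0.83 and 0.44, 8.87-fold higher. These gaps were wider than the spread within either genotype. Pla2g2a was not well above background on the wild-type arrays (-8.23 and -8.66) and reached -3.40 and -3.0 in knockout, at least 16.9-fold higher. Here and below, "at least" sets the knockout mean against the lowest signal well above background on the wild-type arrays, or the reverse for a fall.

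**Figure D3:**
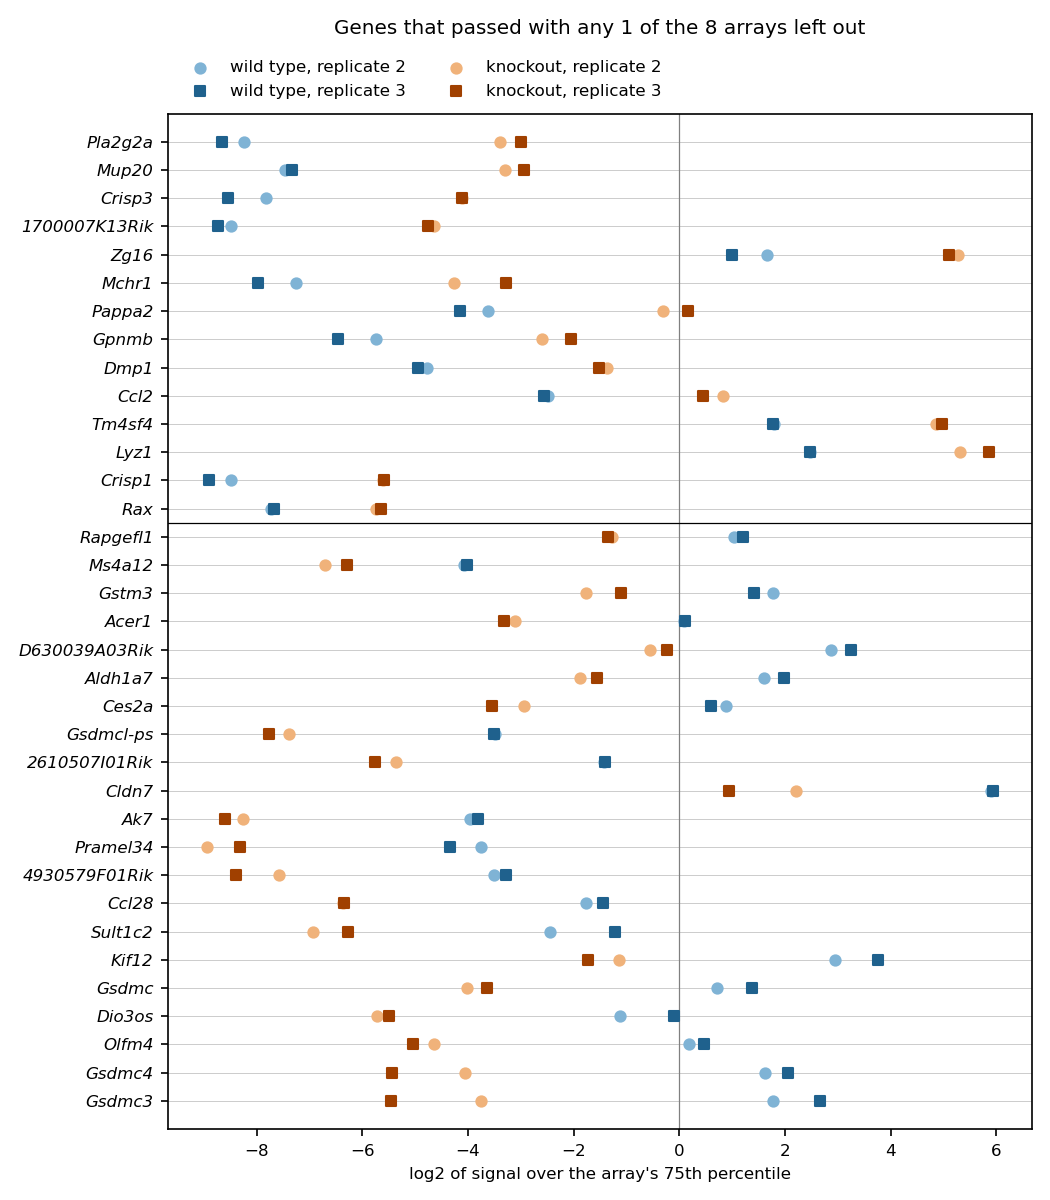
Level of each of the 35 genes that passed with any 1 array left out, as log2 of processed signal over that array's upper quartile, 1 point per array; the 14 above the line rose and the 21 below it fell. For Olfm4 both wild-type points lie between 0.18 and 0.47 and both knockout points between -5.05 and -4.64, and no gene of the 35 has overlapping genotypes.

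The largest differences of all included genes whose wild-type arrays disagreed. Anxa10, an annexin of stomach epithelium, read -3.26 and -6.48 in wild type and 2.81 and 3.29 in knockout (7.92 ± 1.08, 242-fold, adjusted p = 0.0225). Tmprss15, the duodenal enteropeptidase that activates trypsin, read -5.09 and -8.97 against -0.24 and 1.18 (7.50 ± 1.14, adjusted p = 0.0254). Both were high on both knockout arrays. Tmprss15 was not well above background on wild-type replicate 3, so the size of its difference is uncertain. Mmp3, the matrix metalloproteinase stromelysin, read -9.19 and -8.71 against -4.36 and -1.25, at least 22.2-fold higher.

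Several of the other large rises belong to innate immune cells or to the acute phase. Clec4e, a macrophage receptor for microbial glycolipids, was at least 30.3-fold higher, Marco, a scavenger receptor of macrophages, 33.5-fold and Saa3, an acute phase protein of inflamed tissue, 54.0-fold. Saa3 read -3.42 and -3.21 against 1.70 and 3.18. Gml and Gml2, which code for glycosylphosphatidylinositol-anchored proteins, rose 44.7-fold and 28.8-fold, and Slc13a3, a dicarboxylate transporter, 50.5-fold. Retnlb, a goblet cell protein with antibacterial action, was not well above background in wild type and was at least 8.39-fold higher in knockout. Large falls outside the gasdermins included Sdr16c5, a retinol dehydrogenase (74.0-fold), Il22ra2, the soluble antagonist of interleukin-22 (55.8-fold), Dct, a melanin synthesis enzyme (49.8-fold), and Hao2, a peroxisomal hydroxy acid oxidase (25.1-fold). Il22ra2 read -1.01 and 0.08 against -6.48 and -6.06. Sdr16c5 was not well above background on knockout replicate 3 (-8.60), so its fold is uncertain.

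Of 18 brush border genes, Tmprss15 rose and Treh, which splits trehalose, fell, shares near the 6.48% and 3.55% of all genes. Lct, the milk sugar enzyme lactase, read 7.08 and 6.61 in wild type and 6.85 and 4.66 in knockout, so only knockout replicate 3 was low (-1.09 ± 0.66, adjusted p = 0.303). Of 16 genes of fat absorption and chylomicron assembly none rose or fell; 14 suckling-type vacuole genes gave 1 fall, Mcoln3, an endolysosomal channel, at 3.69 and 3.81 against 1.18 and 1.14. The summed pan-epithelial signal was likewise low on knockout replicate 3 alone, though the median of that list was lower on both knockout arrays. The part of epithelial signal in these values was not tested.

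Of 12 genes of the urea cycle and arginine synthesis 4 fell and 0 rose, where 3.55% of all genes fell, with a list median of -1.20. Cps1, which makes carbamoyl phosphate in neonatal enterocytes, read 3.68 and 4.15 against 1.41 and 0.77 (-2.82 ± 0.40, 7.08-fold lower, adjusted p = 0.0236). Otc, the next enzyme, read 2.33 and 3.1 against 0.45 and -0.94 (7.77-fold lower). Knockout arrays were below wild type in both genes, replicate 3 the more so. Aldh18a1, which makes the proline and ornithine precursor, fell 4.88-fold. Relative to the pan-epithelial median, 7 of the 12 were lower on both knockout arrays, where 9.98% of all genes were.

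Over 22 genes of fatty acid oxidation and ketogenesis the median was -0.88. Pck1, a gluconeogenic enzyme, read 6.35 and 6.25 against 4.33 and 3.96 (4.45-fold lower). The detoxification list gave 6 falls among 24 genes and 0 rises, where 3.55% of all genes fell and 6.48% rose. Ces2a, a carboxylesterase, fell 15.8-fold and Gstm3, a glutathione transferase, 8.17-fold. Nr1h4, the bile acid receptor FXR, read 4.55 and 5.01 against 2.72 and 2.32. Fgf15, the hormone that FXR induces in the ileum, read 0.59 and 1.47 against -3.73 and -2.60 (18.3-fold lower, adjusted p = 0.0208). For each of these genes both knockout arrays lay below both wild-type arrays.

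In the stem and crypt base list 4 of 21 fell, Olfm4, Lgr5, Sox9 and Rnf43, and Lrig1 rose. Over all genes 3.55% fell and 6.48% rose. Lgr5, the receptor that marks crypt base stem cells, read 0.94 and 1.51 in wild type and -1.17 and -0.81 in knockout (-2.21 ± 0.27, adjusted p = 0.017). Lrig1, an inhibitor of epidermal growth factor receptors, read 2.00 and 1.47 against 3.19 and 3.58. Of 30 cell cycle genes 1 fell, Nusap1, and 0 rose.

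In the enteroendocrine list 8 of 21 fell and 1 rose, where 3.55% and 6.48% of all genes did. Neurog3, the factor that commits progenitors to the endocrine fate, read 1.19 and 0.96 against -1.26 and -0.51 (-1.96 ± 0.28, adjusted p = 0.0231). Chga, chromogranin A of hormone granules, read 4.16 and 4.01 against 2.99 and 2.88. Both genes were lower on both knockout arrays, and the list's medians in the numbered pairs were close, -0.99 and -1.13. Scgn, the calcium sensor secretagogin, rose by 1.86. Relative to the pan-epithelial median, 9 of the 21 were lower on both knockout arrays and 4 higher, where 9.98% and 43.7% of all genes were.

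Tff3 and Muc2, the trefoil peptide and the gel-forming mucin, differed by -0.22 ± 0.23 and -0.19 ± 0.35 and did not pass, with overlapping genotypes. Atoh1, the secretory fate factor, fell from -0.57 and -0.02 to -2.25 and -1.55, Creb3l4 by 1.29, and St6galnac1, which caps mucin sugars, by 2.04. Zg16 and Retnlb rose, so that 2 of 20 were higher and 3 lower, where 6.48% of all genes rose and 3.55% fell. Of 9 Paneth cell genes 3 rose: Lyz1, Pla2g2a and Defa29, an alpha-defensin. Lyz1 read 2.48 and 2.47 against 5.32 and 5.86, 8.66-fold higher (adjusted p = 0.00788). Defa29 read -1.16 and 1.03 against 4.02 and 4.51, and the near-identical defensin genes cannot be separated by such probes. Tuft cell genes gave 2 rises of 10, Trpm5 and Ptgs1, with Pou2f3, the tuft fate factor, at -0.49 ± 0.33.

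Other junction genes passed in both directions, 3 of 17 claudins and 4 of 20 tight and adherens junction genes, where 10% of all genes passed. Among the other claudins Cldn15, which forms sodium pores in the small intestine, read 2.65 and 2.59 against -0.03 and 0.58 (-2.34 ± 0.24, 5.08-fold lower, adjusted p = 0.0118). Cldn14 fell by 1.49 and Cldn10 rose by 2.12. Cldn2, another cation pore, did not pass (-0.80 ± 0.35). Patj and Tjp3 fell, by 1.39 and 1.10, and Jam2 and Jam3, which wall cells also express, rose by 1.25 and 1.37. Tjp1, the scaffold ZO-1, read 2.45 and 2.47 against 2.40 and 2.16 and did not pass.

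Of 24 genes of T cells, natural killer cells and innate lymphoid cells 10 fell and 0 rose, where 3.55% of all genes fell. On both knockout arrays 20 of the 24 were lower, as were 32.7% of all genes. Cd3g, a subunit of the T cell receptor complex, read -2.17 and -1.53 against -4.95 and -4.78 (-3.02 ± 0.30, 8.08-fold lower, adjusted p = 0.0111). Cd3d read -2.08 and -1.40 against -5.24 and -4.81, 9.71-fold lower. Cd3e fell by 1.29 only. The genotypes did not overlap in any of the 3, and relative to the pan-epithelial median 15 of the 24 were lower on both knockout arrays, where 9.98% of all genes were. Among 12 B and plasma cell genes Ms4a1, which codes for CD20, fell by 3.42, and Mzb1, of antibody-secreting cells, by 1.92.

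Of 19 macrophage and dendritic cell genes 9 rose and 0 fell, where 6.48% of all genes rose, among them Cd14, the lipopolysaccharide co-receptor, at -2.14 and -2.11 against 0.08 and 0.21 (4.82-fold, adjusted p = 0.00942). Adgre1, a surface marker of macrophages, rose by 1.32 ± 0.23, whereas Csf1r, the receptor for macrophage growth, did not pass (-0.04 ± 0.29). The size of the Adgre1 rise was below the 1.62 of the smooth muscle median. Neutrophil receptors Fpr1 and Fpr2 rose 7.24-fold and 6.90-fold and Mmp8 also rose, 3 of 18 genes. S100a8 and S100a9, the calprotectin subunits, read 5.44-fold and 4.93-fold higher without passing (adjusted p = 0.0582 and 0.06). Of 10 mast cell genes Gata2 and Hdc rose. On both knockout arrays 6 of the 10 were higher and 2 lower, where 26.6% and 32.7% of all genes were. Mcpt1, a mast cell protease, went down without passing, at -0.09 and -0.84 against -4.41 and -1.44, and Cpa3 did not pass.

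Of 24 inflammatory cytokines and chemokines 11 rose and 1, Ccl11, fell, with a median of 1.58. Over all genes 6.48% rose and 3.55% fell. Ccl7, a monocyte chemokine, read -4.42 and -5.04 against -1.18 and -1.73 (9.72-fold, adjusted p = 0.0122). Il1rn, the interleukin-1 receptor antagonist, read -5.96 and -6.32 against -3.19 and -1.93 (12.0-fold, adjusted p = 0.0197). Relative to smooth muscle, 7 of the 24 were higher on both knockout arrays and 8 lower. Over all genes 2.2% were higher and 16863 of 19994 lower. Cxcl1, Cxcl2 and Il6, chosen after their values were seen, are shown next with their promoters.

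Cxcl1 and Cxcl2, which attract neutrophils, and Il6, an acute phase cytokine, are textbook targets of NF-kappaB. The 250 bases before each gene's start in RefSeq (GRCm38.p6) were searched on both strands for the 10-letter kappaB site; capitals mark the matches. It was found in 6 of the 18 listed genes with a promoter entry (33.3%) and in 1 of 14 smooth muscle genes (7.14%). Over all 27025 genes with a promoter entry it was found in 2225 (8.23%). A like search for the CArG box (CC, a run of A or T, GG) matched 0 of these 18 and 0 of these 14 genes, against 439 of all (1.62%). A match is a description of the letters and not evidence of binding. The windows lie at chr5:90890995-90891244, chr5:90903649-90903898 and chr5:30012864-30013113, all on the plus strand.
Cxcl1: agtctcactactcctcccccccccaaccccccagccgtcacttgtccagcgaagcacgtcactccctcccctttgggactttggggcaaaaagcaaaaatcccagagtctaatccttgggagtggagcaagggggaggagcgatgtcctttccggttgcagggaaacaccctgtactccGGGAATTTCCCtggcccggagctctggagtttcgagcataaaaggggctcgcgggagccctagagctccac
Cxcl2: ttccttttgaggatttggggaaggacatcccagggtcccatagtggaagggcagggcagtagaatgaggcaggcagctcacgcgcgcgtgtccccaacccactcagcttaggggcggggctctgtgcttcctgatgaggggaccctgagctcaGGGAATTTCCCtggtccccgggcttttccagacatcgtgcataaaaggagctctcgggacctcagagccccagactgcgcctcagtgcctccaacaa
Il6: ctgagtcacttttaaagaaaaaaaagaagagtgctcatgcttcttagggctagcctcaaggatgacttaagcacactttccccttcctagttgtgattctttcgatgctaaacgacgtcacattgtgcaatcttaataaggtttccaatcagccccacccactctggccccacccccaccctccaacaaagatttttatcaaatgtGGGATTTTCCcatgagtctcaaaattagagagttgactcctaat

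Cxcl1 read -4.74 and -3.95 in wild type and -1.23 and -1.62 in knockout, 7.57-fold higher (adjusted p = 0.0275). Cxcl2 was not well above background in wild type (-8.74 and -8.86) and read -3.49 and -5.19 in knockout, at least 7.67-fold higher. Il6 read -6.39 and -7.63 against -3.14 and -3.71, 12.0-fold higher (adjusted p = 0.0349). That fold is uncertain, because on wild-type replicate 3 Il6 lay below the lowest signal well above background (-6.66). All 3 genes were higher on both knockout arrays, and each read higher on knockout replicate 2 than on replicate 3. Il1rn of the same list had the reverse order in knockout, at -3.19 and -1.93. The order of the 2 knockout arrays was not tested. Cxcl3, Cxcl10 and Lif, the remaining listed genes with the site, did not pass.

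Of 20 matrix metalloproteinases and their inhibitors 10 rose and 0 fell, where 6.48% of all genes rose. Mmp19 read -6.58 and -7.08 against -3.99 and -3.25 (9.27-fold, adjusted p = 0.0163). That fold is uncertain, because wild-type replicate 3 was not well above background. Adamts1, a protease that cleaves versican, read 1.34 and 1.82 against 3.48 and 4.07. In the list of repair and fetal-type epithelium 6 of 20 rose. Krt20, a keratin of surface epithelium, read 4.11 and 3.92 against 6.52 and 6.06, a rise of 2.28 ± 0.25 (4.85-fold, adjusted p = 0.0128), and Ereg, an epidermal growth factor receptor ligand, rose 6.88-fold. Both genes lay higher on both knockout arrays. Msln and Il1rn belong to this list too and are counted above with mesothelium and cytokines. Of 20 antimicrobial and acute phase genes 4 rose, Saa1, Saa2, Saa3 and Hp.

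Of 20 immediate early genes 7 rose and 0 fell, where 6.48% of all genes rose and 3.55% fell. Egr2 read -3.98 and -4.15 against -2.31 and -1.98 (3.79-fold, adjusted p = 0.0118) and Klf6 3.13 and 3.3 against 4.44 and 4.51 (2.38-fold). Relative to smooth muscle, 0 of the 20 were higher on both knockout arrays, where 2.2% of all genes were. Among 14 glucocorticoid-responsive genes 5 rose and Pck1 fell. Zbtb16, a repressor that glucocorticoids induce, read -1.75 and -2.86 against 1.82 and 2.18 (19.8-fold higher, adjusted p = 0.0081), and Sult1a1, a sulfotransferase, rose by 1.37. Of 22 interferon-responsive genes, 16 genes of the unfolded protein response and 20 of cholesterol synthesis, 0 passed. In the hypoxia and glycolysis list 1 of 15 fell, Ndrg1.

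Some genes with a known position along the gut varied with the number of the array as well as with genotype. Fabp6, the ileal bile acid binding protein, read -5.81 and 1.72 in wild type and -7.38 and 1.46 in knockout. It was thus low on both arrays numbered 2 and high on both numbered 3, and its difference between genotypes was -0.92 ± 3.24. Hoxc8 and Hoxc9, homeobox genes of posterior positions, behaved alike: Hoxc9 read -8.95 and -2.27 against -6.33 and -3.03. Scnn1g, a sodium channel subunit of the distal gut, and Hoxc10 went the other way, Scnn1g at -3.68 and -8.03 against -4.61 and -8.40. Some of these low readings lay below their array's lowest signal well above background. They were Scnn1g on both arrays numbered 3, Hoxc9 on wild-type replicate 2 and Fabp6 on knockout replicate 2. The sizes of those gaps are therefore uncertain. These genes were picked from their lists after their values were seen. Both arrays numbered 3 lay above both numbered 2 for 5 of 17 distal small intestine genes (29.4%) and for 12% of all genes. They lay below for 7 of 19 proximal genes and 15% of all genes. Variation with the number was not particular to position genes. Of 20 cholesterol synthesis genes 12 lay above and 0 below, and of 22 interferon-responsive genes 14 lay below and 0 above.

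Other position genes set wild-type replicate 3 or the genotypes apart. Onecut2, a duodenal transcription factor, read 3.14 and -1.19 in wild type and 2.70 and 1.32 in knockout, and Cldn8, a claudin of the distal gut, -5.72 and 3.57 against -6.07 and -3.32. Wild-type replicate 3 stood farthest from the other 3 arrays in both. Pdx1, the duodenal homeobox factor, read -4.58 and -6.73 against -2.03 and -2.72 (9.76-fold higher, adjusted p = 0.0368), in the same direction as Tmprss15. Neither gene was well above background on wild-type replicate 3, so the sizes of both rises are uncertain. Gata4, another proximal factor, went down without passing (-1.33 ± 0.39, adjusted p = 0.0726), and so did Lct. In total 2 of 19 proximal genes rose and 1 fell, and 1 of 17 distal genes rose and 1 fell. Of 16 genes of large intestine type 4 fell. Over all genes 6.48% rose and 3.55% fell. Among 13 stomach-type genes 3 rose, Anxa10, Vsig1 and Sox2; the gastric genes Muc5ac and Tff2 differed by -0.57 and -1.88. Of 30 Hox genes 4 rose, Hoxb3, Hoxb4, Hoxb5 and Hoxd3, and wall cells express these too. The part that the position of the fragments had in any of the differences was not tested.

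**Figure D4:**
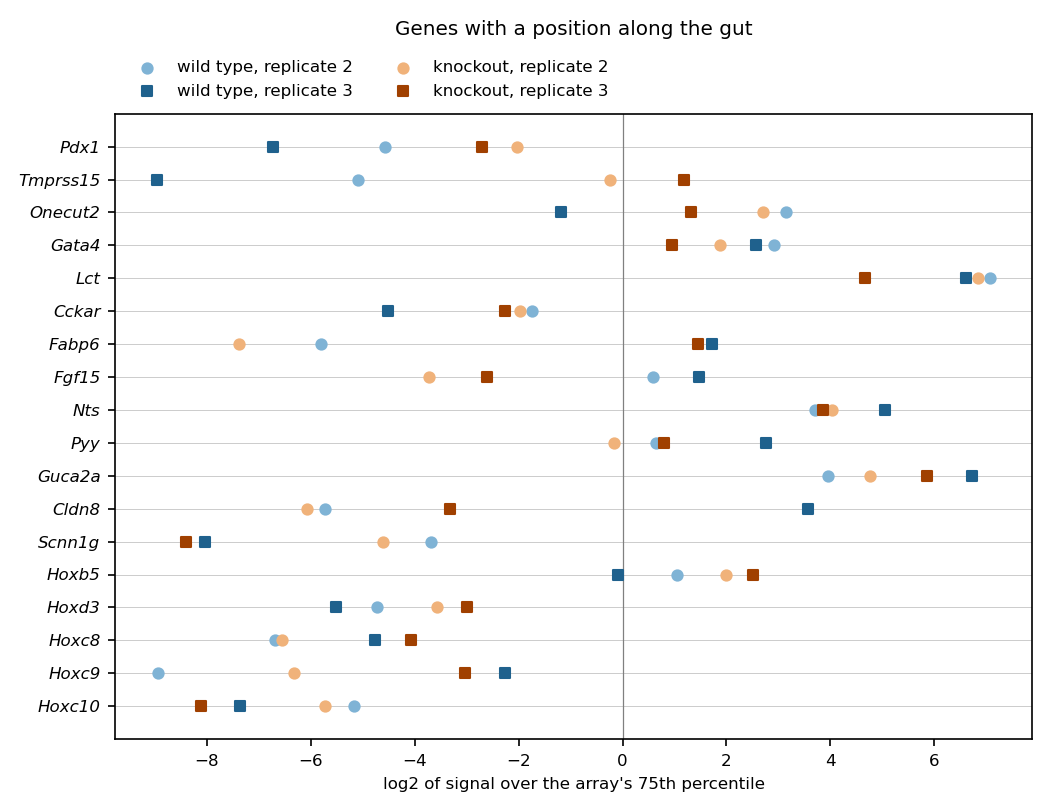
Levels of 18 genes with a known position along the gut, as log2 of processed signal over that array's upper quartile, 1 point per array; circles are replicate 2 and squares replicate 3. For Fabp6 both squares lie between 1.46 and 1.72 and both circles between -7.38 and -5.81 whatever the genotype, while for Pdx1, Tmprss15 and Fgf15 the colours separate.

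The effect of the knockout was also set against that in the large intestine, array groups of the same design. The difference between the 2 effects passed for 28 of 19994 genes (0.14%), 19 with the small intestine effect below the large and 9 above. Of these, 18 had also fallen in small intestine and 6 had risen. The count was 1 without either wild-type large intestine array or without wild-type small intestine replicate 3, and 986 at most with another array left out. Acer1 fell by 3.31 in small intestine and differed by 0.52 in large, a difference of -3.82 ± 0.25 (adjusted p = 0.00744). Mup20, a major urinary protein with near-identical family members, rose by 4.27 in small and differed by -0.96 in large (5.24 ± 0.29, adjusted p = 0.00641). It was not well above background on the wild-type small intestine arrays, so its rise was at least 15.3-fold. Cldn7 fell in large intestine too, with a difference of -3.52 (limma adjusted p = 0.0338). The difference between the 2 effects did not pass for it (-0.82 ± 0.55, adjusted p = 0.378). The transcript 2610507I01Rik fell by 4.13 in small and by 4.83 in large intestine.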

How the data were processed

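Groups were taken from the sample titles. The deposited array files hold spot intensity, background-subtracted and detrended by the scanner software (Feature Extraction 10.7.3.1, probe positions on mm9, per the file headers). The authors also deposited a table of normalized values as intensity on a linear scale, used here as an alternative; R 3.3.0 is named in the submitters' processing notes. From the array files, log2 of the processed signal minus each array's 75th percentile was taken, outlier-flagged spots (148 to 312 per array) were left out, and a probe was kept when, in at least 1 group, both arrays called it well above background. Of 55681 probes, 25983 kept ones had a gene name, from accession or symbol in RefSeq or from the file, and the probe with the highest mean stood for each of 19994 genes. limma 3.58.1 in R 4.3.3 fitted 4 group means over all 8 arrays (4 residual degrees of freedom, lmFit and eBayes, Benjamini-Hochberg), and the scripts were tested on simulated data. Precision is given as the SE of the fit, without intervals, and 2 arrays per group limit it. The depth of an array is its signal, given with the results.

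Named were Cldn7, the 15 largest rises and falls passing over clone and predicted names, the 2 members of smallest p per direction in each of 49 lists, and the first 2 measured members of the wall, epithelium, position and immune lists. Of 826 listed genes 791 were measured. Other named genes were chosen after their values were seen, and the members and lists themselves with earlier results of these data known. Alternatives were other background correction, scaling, filters, probe rules, priors, centring on smooth muscle or pan-epithelial genes, a replicate block and leaving out each array. Some genes that the rule names are not reported here.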

Additional observations from a re-analysis of the deposited data

Results flagged for a closer look

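The effect of the knockout differed between small and large intestine, by limma's test of the difference itself, for 8 of the genes named by rule. In 7 of them the small intestine effect was the lower. Olfm4, of the crypt base, had a small minus large difference of -7.56 ± 0.32 in log2 (with SE, adjusted p = 0.00184). It fell by 5.17 in small intestine and rose by 2.39 in large (limma adjusted p = 0.0253). The gasdermins Gsdmc4, Gsdmc3 and Gsdmc had differences of -7.32 ± 0.65, -7.01 ± 0.79 and -5.49 ± 0.45 (adjusted p = 0.0241, 0.0479 and 0.0165). Ccl28, the epithelial chemokine, had -4.84 ± 0.33 (adjusted p = 0.00868). The detoxification enzymes Ces2a and Gstm3 had -4.05 ± 0.37 and -3.45 ± 0.38 (adjusted p = 0.0251 and 0.0475). Zg16, the mucus lectin, was the gene with the higher effect in small intestine, 3.35 ± 0.37 (adjusted p = 0.0444). Each rests on 2 arrays per group.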

How the results depend on the processing

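Against the 2005 genes that passed, 2679 did with normexp background correction, 2460 with quantile normalization, 2823 in the deposited table and 2527 with a trended robust prior. Centring on the pan-epithelial list left 437 (318 higher), no background filter 487 (274 higher) and the small intestine groups alone 35 (15 higher). Centring on the smooth muscle list gave 14322 (87 higher); all genes then share the error of that median. Leaving out 1 array gave 70 to 3830. The segment difference, 28 genes, became 17 with the epithelial list, 11015 with the smooth muscle list, 15 without the filter, 5 with probes well above background on all 8 arrays, and 1 to 986 with an array left out. Cldn7 fell by 3.70 to 4.97 with an array left out and had a difference of -4.34 (adjusted p = 0.0763) with the small intestine groups alone. Relative to smooth muscle the sign of 13 wall, macrophage and other genes turned: Ret -0.081, Elavl4 -0.57, Etv1 -0.22, Pdgfra -0.60, Dcn -0.65, Lpl -0.31, Jam2 -0.37, Jam3 -0.25, Hoxb3 -0.45, Adgre1 -0.30, Gata2 -0.67, Klf6 -0.37 and Sult1a1 -0.25. Pramel34, among the 35 genes that passed whichever array was left out, had a difference of 0.12 with outlier flags ignored, in place of -4.57. With the replicate number as a block 1140 genes passed (649 higher), the segment difference passed for 19 and Cldn7 had an adjusted p of 0.0163; same-numbered arrays of 2 groups correlated at 0.0082 to 0.263 in their deviations (0.107 between the small intestine groups), not over 0.1 for every pair of groups, so the numbers were not taken to pair the samples.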
